A study of Homo sapiens with 6 samples.

Results

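The ephrin ligands are the 8 genes with the symbols EFNA1, EFNA2, EFNA3, EFNA4, EFNA5, EFNB1, EFNB2 and EFNB3. They were taken by symbol from a raw gene count table of 36458 symbols, and all 8 were in it. DMS114 cells, a cultured line that derives from a human small cell lung cancer, were used. One group of 3 libraries came from cells given 2.5 mM β-alanine for 48 h, and the other group of 3 came from cells given the same volume of vehicle, called control here. RNA-seq of polyadenylated RNA was used. The labels do not say whether the libraries came from separate cultures, so p-values measure the spread between these libraries, which may be technical. All libraries came from this 1 line, and the labels name no other cell type beside it.

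Ephrins are membrane-bound ligands of the Eph receptor tyrosine kinases, and both sides of a cell contact can receive a signal. The A class is held to the membrane by a lipid (GPI) anchor and binds mainly EphA receptors. The B class crosses the membrane, binds mainly EphB receptors and carries a cytoplasmic tail that can be phosphorylated and bound by PDZ proteins. Signalling into the receptor-bearing cell is called forward and signalling into the ligand-bearing cell is called reverse. The system is best known for repulsion and guidance of growing axons, for tissue boundaries and for blood vessel formation.

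Totals per library were 14433801, 27324339 and 32909568 counts with β-alanine, against 18814876, 22072654 and 19613283 in controls. β-alanine library 1 stood apart from the other 2 of its group, with a first principal component of -4.78, where those had -11.7 and -12.4 and controls lay between 8.62 and 11.6. On the second component it had 13.5, where all other libraries lay between -4.84 and 1.89. Ligand calls that change without β-alanine library 1 are given both ways. The small cell marker list summed to between 378 and 416 CPM (counts per 1000000 counts of the scaled library) with β-alanine and between 348 and 354 CPM in controls. YAP1, a transcriptional co-activator found in non-neuroendocrine small cell lines, averaged 129 ± 5.82 CPM with β-alanine and 124 ± 4.91 CPM in controls (SD, n = 3 each). POU2F3 and INSM1, transcription factors that mark other small cell lines, had too few counts to test. The neuroendocrine markers SYP, CHGA and UCHL1 rose and NCAM1 fell, the last with a call lost in 4 of 15 alternative settings. A fibroblast marker list, led by the collagen gene COL3A1, summed to between 908 and 1009 CPM with β-alanine and between 1140 and 1184 CPM in controls. COL3A1 made up most of this sum, at 692 ± 50.1 CPM with β-alanine and 876 ± 23.5 CPM in controls (SD, n = 3 each). Of the 6 markers in this list, COL3A1, DCN and COL1A1 fell, LUM was not called and 1 had too few counts to test. PDGFRB had a log2 fold change of 0.19 ± 0.07 (SE) and rose, with a call lost in 9 of 15 alternative settings. COL1A1 lost its call in 4 of 15. Epithelial markers summed to between 11.8 and 14.7 CPM with β-alanine and between 8.91 and 9.89 CPM in controls. KRT18, a keratin, made up most of this sum, at 11.9 ± 1.36 CPM with β-alanine and 8.11 ± 0.652 CPM in controls (SD, n = 3 each). It rose by 0.58 ± 0.11 (SE) on the log2 scale. Of the 5 epithelial markers only 2 were tested, and KRT18 alone was called. Endothelial markers summed to between 0.209 and 0.328 CPM with β-alanine and between 0.227 and 0.378 CPM in controls. Immune markers summed to between 0.219 and 0.569 CPM with β-alanine and between 0.500 and 0.561 CPM in controls. Members of the fibroblast, epithelial and neuroendocrine lists moved with the treatment, and their part in the ephrin results was not tested.

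Ephrin ligand transcripts were lower with β-alanine for 4 of the 8 genes, and none was higher. EFNB3, EFNA1, EFNA5 and EFNB2 passed the test, the quasi-likelihood test of edgeR with p-values adjusted by Benjamini-Hochberg over all 17331 tested genes and a threshold of 0.05. All 8 ligands were tested. Of all tested genes, 27.9% changed, 13.8% in the lower and 14.1% in the higher direction. With an unadjusted p under 0.05 by edgeR quasi-likelihood, 6 ligands were lower and 0 were higher. The background is larger at that threshold than the shares above, as at least 6341 of the 17331 tested genes passed it in either direction. DESeq2 and limma-voom also called 0 ligands higher, where they called 13% and 14.1% of their tested genes higher. In 6 of the 8 ligands every β-alanine library lay below every control, against 19.2% of tested genes. The median log2 fold change was -0.28 over the ligands and -0.0032 over all tested genes. Without β-alanine library 1, 6 ligands fell, EFNA2 and EFNB1 being added, against a background of 18.3% lower. Without control library 1, 3 fell, against 10.2%. At a threshold of 0.01, 3 fell, against 8.03%. In bulk RNA, fewer cells that express a ligand and less transcript per cell cannot be told apart.

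**Figure D1:**
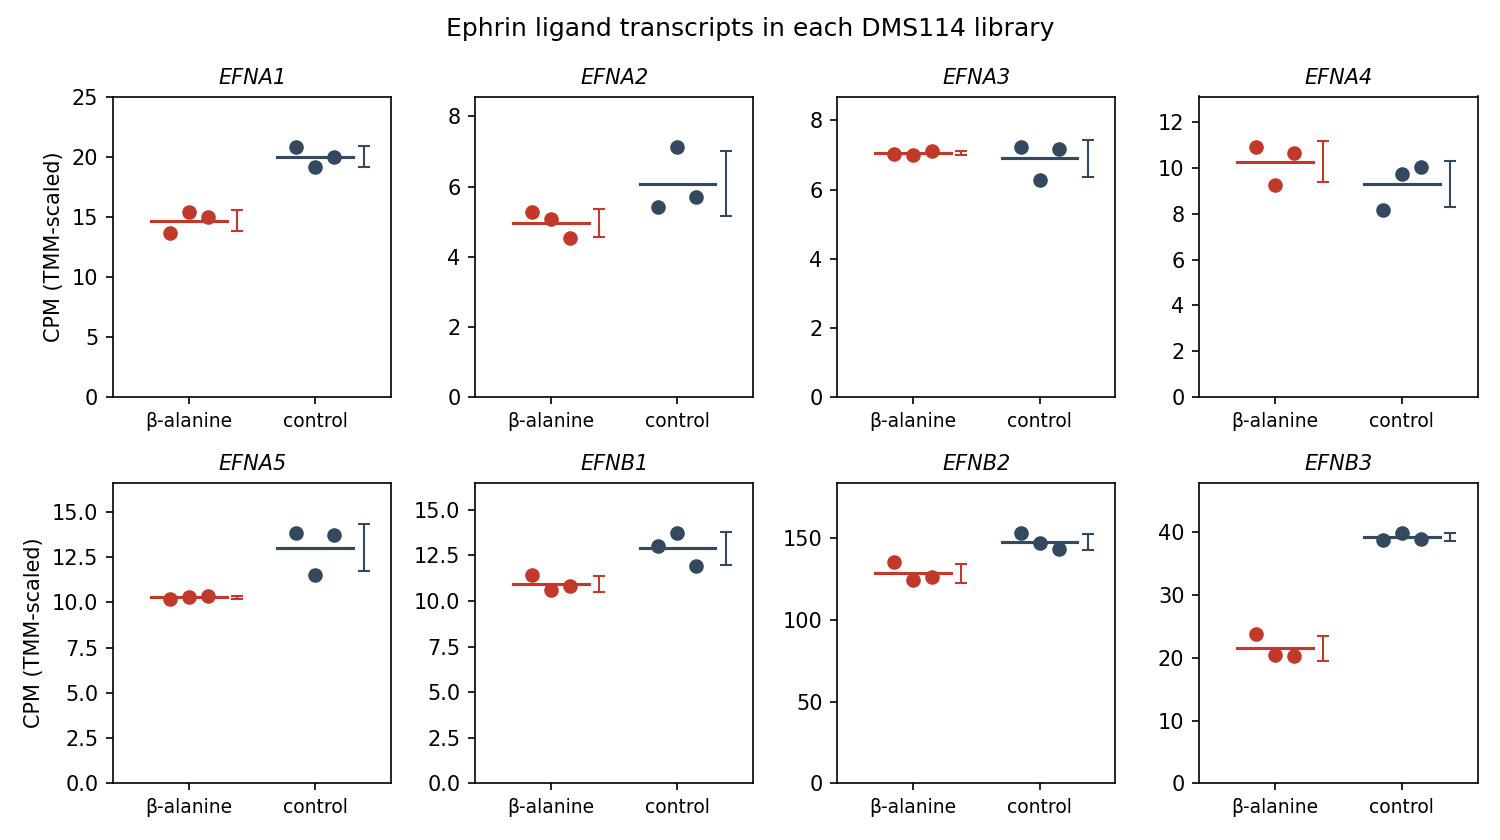
CPM of each ephrin ligand in the 3 β-alanine and 3 control libraries. Points are libraries and bars mark the mean and SD. EFNB3 lies between 20.3 and 23.8 CPM with β-alanine and between 38.9 and 39.9 CPM in controls, while EFNA3 and EFNA4 overlap.

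EFNB3 had the largest fold change of the ligands. It encodes ephrin-B3, which in mouse spinal cord acts at the midline to keep corticospinal axons from crossing. The gene lies on the plus strand of chromosome 17 at 7705202 to 7711372 (RefSeq, GRCh38.p14). It had 342, 560 and 677 counts with β-alanine and 719, 878 and 765 counts in controls. Scaled to library size these were 23.8, 20.4 and 20.3 CPM with β-alanine, against 38.9, 39.9 and 39.0 CPM in controls. The groups did not overlap, and β-alanine library 1 was the highest of its group. The means were 21.5 ± 1.99 CPM with β-alanine and 39.3 ± 0.578 CPM in controls (SD, n = 3 each). The log2 fold change was -0.89 ± 0.07 (SE), with a 95% confidence interval of -1.03 to -0.75 and a Benjamini-Hochberg adjusted p of 1.33e-08 by edgeR quasi-likelihood. This was a fold of 0.541. Of all tested genes, 126 had a log2 fold change this low or lower, EFNB3 included, and 105 of these were called. Among the 13851 genes with an average log2 CPM of at least 1, 40 had such a value, called or not (0.289%).

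EFNB2, the most abundant ligand, fell by less. Ephrin-B2 marks arterial endothelium and pairs with EphB4, which marks veins. EFNB2 lies on the minus strand of chromosome 13 at 106489745 to 106535662. It measured 135, 125 and 126 CPM with β-alanine, against 153, 147 and 144 CPM in controls. All 3 β-alanine libraries lay below the lowest control. The log2 fold change was -0.20 ± 0.04 (SE, Benjamini-Hochberg adjusted p = 0.00128 by edgeR quasi-likelihood), with a confidence interval of -0.30 to -0.11. GENCODE 29 places AL138689.1 on the same strand and AL138689.2 on the other strand within the gene. The use of strand in counting was not given in the sources used here, so their reads and those of EFNB2 are uncertain. Neither passed the test, with log2 fold changes of -0.39 ± 0.19 and -0.35 ± 0.26 (SE).

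EFNB1 encodes ephrin-B1, the gene mutated in craniofrontonasal syndrome. It lies on the X chromosome at 68829021 to 68842160, on the plus strand. It measured 11.4, 10.6 and 10.8 CPM with β-alanine, against 13.0, 13.7 and 11.9 CPM in controls. The groups did not overlap, but the log2 fold change of -0.25 ± 0.09 (SE) narrowly missed the threshold, with a Benjamini-Hochberg adjusted p of 0.0509 by edgeR quasi-likelihood. It passed under 4 of the other settings, with adjusted p-values between 0.0421 and 0.0494, and also without β-alanine library 1 (0.0198) or control library 3 (0.0419). These were 6 of 15 alternative settings, and it did not pass under the rest. The adjusted p by edgeR quasi-likelihood was 0.218 without control library 2 and 0.172 without β-alanine library 2, and DESeq2 gave 0.114.

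EFNA1 encodes ephrin-A1, first found as a tumour necrosis factor-induced endothelial gene and the main ligand of EphA2. It is at 155127876 to 155134899 on the plus strand of chromosome 1. It measured 13.7, 15.4 and 14.98 CPM with β-alanine, against 20.9, 19.1 and 20.04 CPM in controls. Every β-alanine library lay below every control. The means were 14.7 ± 0.875 CPM with β-alanine and 20.02 ± 0.861 CPM in controls (SD, n = 3 each). The log2 fold change was -0.43 ± 0.08 (SE, Benjamini-Hochberg adjusted p = 0.000323 by edgeR quasi-likelihood), with a confidence interval of -0.60 to -0.27.

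EFNA5 encodes ephrin-A5, which in mice guides retinal axons to their targets in the midbrain. It is the longest of the ligand genes, at 107376894 to 107670937 on the minus strand of chromosome 5. It measured 10.2, 10.3 and 10.3 CPM with β-alanine, against 13.8, 11.5 and 13.7 CPM in controls. The β-alanine libraries were tightly grouped below all controls, of which library 2 was the lowest. The log2 fold change was -0.34 ± 0.10 (SE, Benjamini-Hochberg adjusted p = 0.0118 by edgeR quasi-likelihood). The call was lost without control library 1 (adjusted p = 0.065) or control library 3 (0.0599).

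EFNA2, EFNA3 and EFNA4 did not pass the test. EFNA2, at 1284227 to 1301431 on the plus strand of chromosome 19, was the least counted ligand, with 76, 139 and 151 counts with β-alanine against 100, 157 and 112 in controls. Ephrin-A2 shares with ephrin-A5 the mapping of retinal axons in mice. Its CPM of 5.29, 5.07 and 4.52 with β-alanine lay below the 5.41, 7.14 and 5.71 of controls, with a gap between the nearest libraries that was small beside the spread of the controls. The log2 fold change was -0.32 ± 0.14 (SE, Benjamini-Hochberg adjusted p = 0.0868 by edgeR quasi-likelihood), and without β-alanine library 1 the adjusted p was 0.0389. EFNA2 passed in only this 1 of 15 alternative settings, and without control library 2 the adjusted p was 0.432. Ephrin-A3, which in mouse hippocampus sits on astrocytes facing EphA4 on dendritic spines, comes from EFNA3. EFNA3 measured 7.03, 7.00 and 7.13 CPM with β-alanine, against 7.24, 6.28 and 7.19 CPM in controls. Its log2 fold change of 0.04 had a confidence interval of -0.20 to 0.27, and its sign turned to -0.033 without control library 2. EFNA4, a gene linked to premature fusion of the coronal suture, measured 10.9, 9.26 and 10.6 CPM with β-alanine, against 8.16, 9.73 and 10.04 CPM in controls, and its log2 fold change of 0.13 had an interval of -0.09 to 0.35. Without control library 1 the EFNA4 value was 0.048, and on counts thinned to the smallest library it was 0.26. EFNA3 and EFNA4 both overlapped between groups.

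**Figure D2:**
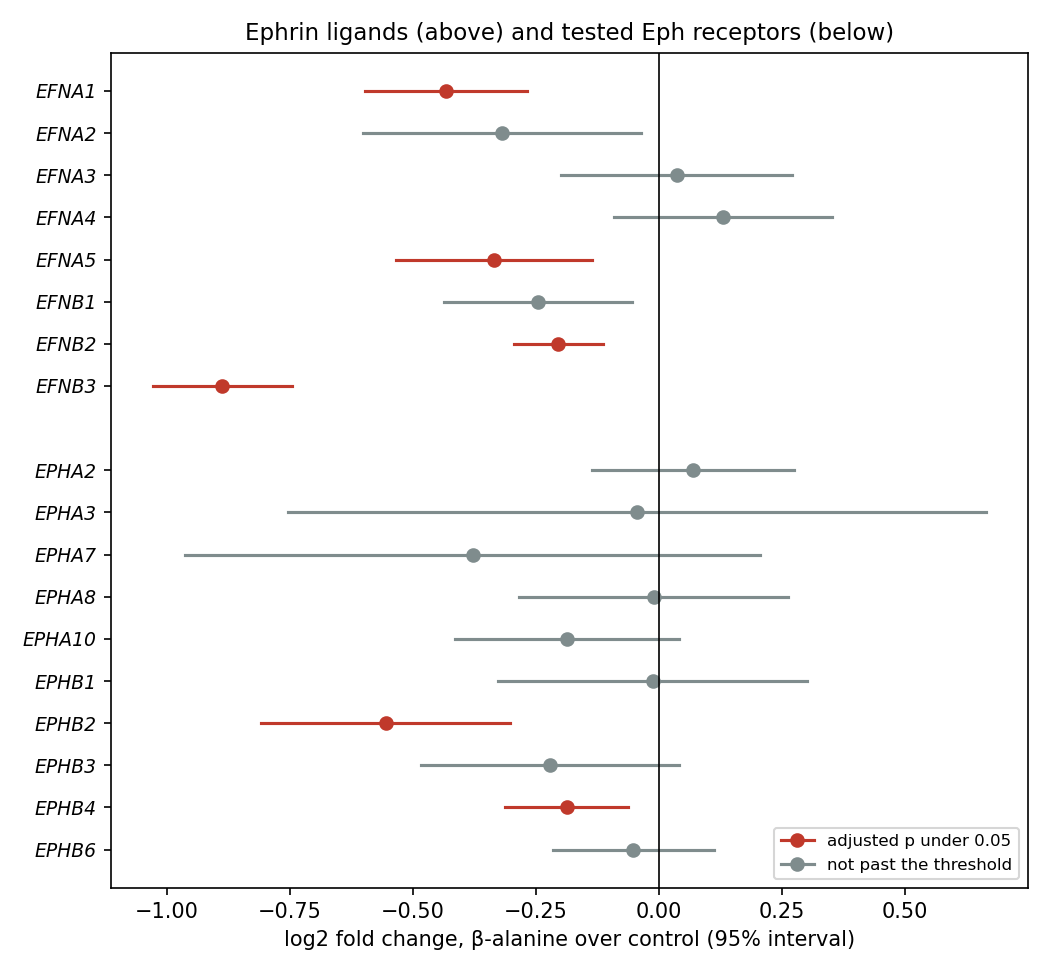
Log2 fold change, β-alanine over control, of the 8 ephrin ligands and the 10 tested Eph receptors. Bars are 95% confidence intervals. EFNB3 at -0.89 is the lowest of the ligands and EPHB2 at -0.55 the lowest of these receptors.

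The 3 genes EFNA4, EFNA3 and EFNA1 lie next to each other on the plus strand of chromosome 1, but EFNA1 alone of them was called. EFNA4 is at 155063740 to 155069553, EFNA3 starts 9284 bases after it at 155078837 and ends at 155087538, and EFNA1 starts 40338 bases after EFNA3. The ratio of EFNA1 to EFNA4 was 1.255, 1.66 and 1.41 with β-alanine, against 2.56, 1.97 and 1.99 in controls. The ratio of EFNA1 to EFNA3 was 1.95, 2.20 and 2.10 with β-alanine, against 2.88, 3.05 and 2.79 in controls. Neither ratio overlapped between groups. EFNA1 was called from these same libraries, so both ratios are a description. The exact permutation test gave p = 0.1 for each, two-sided, the smallest that 3 libraries against 3 allow, and 0.165 after adjustment over the 28 ligand pairs. RefSeq annotates the read-through genes ADAM15-EFNA4 and EFNA4-EFNA3 across this cluster, and DCST1-AS1 overlaps EFNA4 on the other strand, so how reads were divided here is uncertain. ADAM15, a membrane metalloproteinase gene that ends 965 bases before EFNA4, fell by 0.20 on the log2 scale. SLC50A1, a sugar transporter gene 476 bases beyond EFNA1, rose by 0.15. By edgeR quasi-likelihood, ADAM15 had a Benjamini-Hochberg adjusted p of 0.00824 and SLC50A1 of 0.0172. ADAM15 was not called once β-alanine library 2 (0.0715) or 3 (0.0617) or control library 2 (0.0582) was left out, nor was SLC50A1 with library 2 or 3 of either group left out (0.0864 to 0.114).

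Around the other ligands that fell, the nearest tested genes did not share one direction. Next to EFNB3, WRAP53, a telomerase assembly gene ending 1700 bases before it, had a log2 fold change of 0.07 ± 0.05 (SE) and was not called. DNAH2, an axonemal dynein gene 6372 bases beyond, fell by 0.52 ± 0.16 on the log2 scale (Benjamini-Hochberg adjusted p = 0.0179 by edgeR quasi-likelihood). That call was lost in DESeq2 (0.0561) and without β-alanine library 2 (0.0654), control library 2 (0.0737) or control library 3 (0.0771). Beside EFNB2, ARGLU1, which encodes an arginine- and glutamate-rich splicing protein, lay 6011 bases away and fell by 0.18. ERCC5, a DNA repair nuclease gene 3613750 bases from EFNB2, rose by 0.23, a call lost under 7 of 15 other settings. Beside EFNA5, the F-box gene FBXL17 lay 188098 bases away and rose by 0.41 ± 0.08. The non-coding LINC02163, 3271491 bases from EFNA5, was not called, at -0.16 ± 0.35. Over the 12 neighbours of the 8 ligands that are not themselves ligands, 4 rose, 3 fell and 5 did not pass the test, where 14.1% of all tested genes rose and 13.8% fell.

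Promoter windows of 250 bases before the gene start came from RefSeq's GRCh38.p14 table, which matched 7 of the 8 ligands. EFNB3 was not matched. The table's start of EFNA2 lies inside the gene span given above, so its window, at 1285623 to 1285872, does too. The windows of EFNA1, EFNA4 and EFNB1 overlap a GENCODE 29 exon of the same gene. They are not printed, but are included in the counts below. Of the windows without such overlap, 3 are shown. They belong to a called ligand of each class, EFNB2 and EFNA5, and to EFNA3, which did not pass the test. Capitals mark the GC box, GGGCGG or its reverse complement CCGCCC, a motif bound by Sp-family factors.
EFNB2 promoter, chr13:106535663-106535912, minus strand: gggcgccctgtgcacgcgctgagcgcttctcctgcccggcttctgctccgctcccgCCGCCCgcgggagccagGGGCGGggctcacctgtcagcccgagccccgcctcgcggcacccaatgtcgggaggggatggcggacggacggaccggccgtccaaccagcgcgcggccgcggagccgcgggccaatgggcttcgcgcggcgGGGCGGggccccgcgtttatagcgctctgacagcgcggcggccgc
EFNA5 promoter, chr5:107670938-107671187, minus strand: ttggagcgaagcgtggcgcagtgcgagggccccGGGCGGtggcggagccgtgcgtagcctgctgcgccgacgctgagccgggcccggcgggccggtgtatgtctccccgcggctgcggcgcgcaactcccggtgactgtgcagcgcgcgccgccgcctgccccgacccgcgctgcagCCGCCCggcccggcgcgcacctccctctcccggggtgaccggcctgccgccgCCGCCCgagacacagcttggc
EFNA3 promoter, chr1:155078587-155078836, plus strand: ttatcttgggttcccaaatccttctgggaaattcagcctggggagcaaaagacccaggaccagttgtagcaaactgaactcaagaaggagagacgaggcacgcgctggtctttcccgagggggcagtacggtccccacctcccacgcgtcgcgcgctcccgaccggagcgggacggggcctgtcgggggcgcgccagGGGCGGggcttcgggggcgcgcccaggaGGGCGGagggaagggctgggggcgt
EFNB2 and EFNA5 each held 3 GC boxes and EFNA3 held 2. All 7 matched ligand windows held at least 1, against 42.6% of the 35116 promoter windows in the table. EFNB2 also held 2 CCAAT matches, which 32.0% of windows hold, and 1 TATAAA match, which 10.7% hold, each counted on both strands. GC content was 78.4% for EFNB2, 79.6% for EFNA5 and 67.6% for EFNA3, with a median of 58% over all windows. The windows of ligands that fell and of those that did not both carried GC boxes, and a match is a run of letters, not a measured site.

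Comparing levels between ligands needs a correction for length, so CPM was divided by the length in kilobases of the longest GENCODE 29 transcript. EFNB2 led in both groups, at 25.8 CPM per kb with β-alanine and 29.6 in controls. EFNB3 ranked 4 with β-alanine at 6.68 CPM per kb and 2 in controls at 12.2. With β-alanine the order after EFNB2 was EFNA4 (8.14), EFNA1 (7.63), EFNB3, EFNA2 (5.23), EFNA3 (3.96), EFNB1 (3.30) and EFNA5 (1.93). The ranges of EFNA4 and EFNA1 overlapped there, as did those of EFNA1 and EFNB3 and those of EFNA4 and EFNB3. The rank of EFNB3 in that group was therefore not separate from those of EFNA4 and EFNA1. In controls the order after EFNB3 was EFNA1 (10.4), EFNA4 (7.37), EFNA2 (6.41), EFNB1 (3.89), EFNA3 (3.87) and EFNA5 (2.44), with overlap between EFNA4 and EFNA2 and between EFNB1 and EFNA3. All other neighbours in each order were separate. With the union of exons as length, EFNA1 measured 5.79 CPM per kb with β-alanine and 7.88 in controls, so in the β-alanine group its mean then lay below that of EFNB3.

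**Figure D3:**
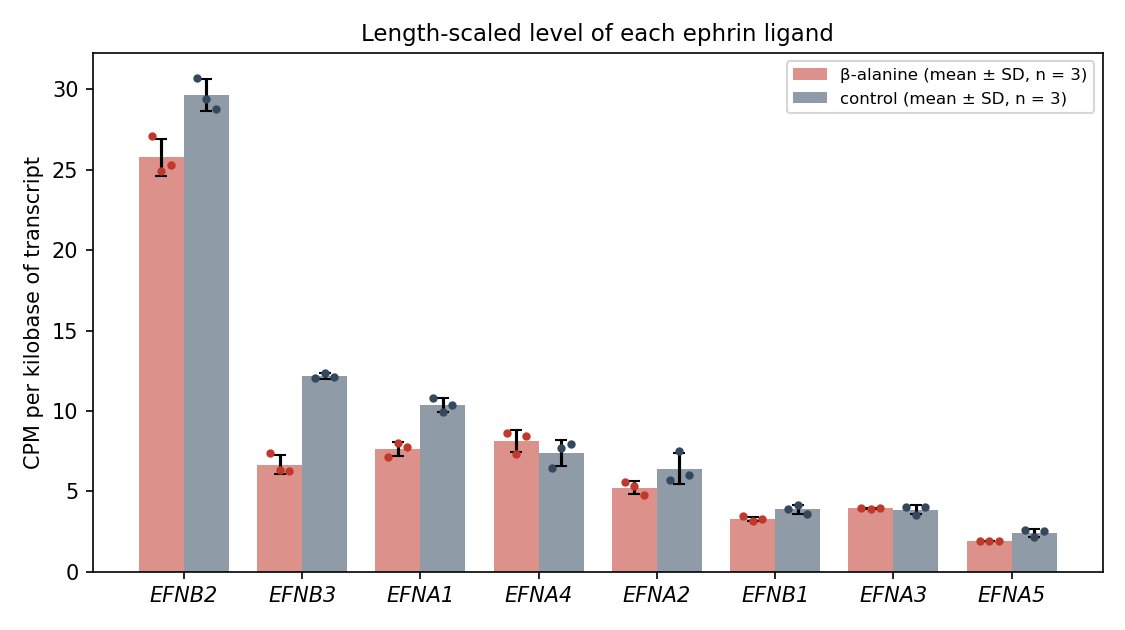
Level of each ephrin ligand in CPM per kilobase of the longest transcript, by library, with β-alanine and in controls. EFNB2 is highest in both groups, at 25.8 with β-alanine and 29.6 in controls on average, and EFNB3 averages 6.68 with β-alanine and 12.2 in controls.

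By share of the ligand pool, EFNB3 took less in every β-alanine library than in any control, while EFNA4, EFNB2 and EFNA3 each took more. The shares of a library add up to the whole, so a higher share can come with a lower total and is not by itself a rise in level. In CPM, EFNA4 averaged 10.3 with β-alanine and 9.31 in controls, and EFNA3 averaged 7.06 and 6.90. Neither was called. EFNB3 supplied 11.3%, 10.4% and 10.2% of the summed ligand CPM per kb with β-alanine, against 15.8%, 16.1% and 16.04% in controls. EFNA4 supplied 13.3%, 12.02% and 13.6% with β-alanine, against 8.46%, 10.03% and 10.5% in controls. EFNB2, which fell in CPM, supplied 41.6%, 40.9% and 40.9% with β-alanine, against 40.2%, 38.3% and 38.1% in controls. EFNA3 supplied 6.06%, 6.44% and 6.48% with β-alanine, against 5.32%, 4.59% and 5.35% in controls. The 3 B-class ligands together made up 58.2%, 56.5% and 56.4% with β-alanine, against 61.2%, 59.8% and 58.9% in controls, with no overlap. In CPM, the A-class sum averaged 47.3 ± 0.304 with β-alanine and 55.3 ± 1.46 in controls (SD, n = 3 each). The B-class sum averaged 161 ± 8.18 with β-alanine and 200.2 ± 5.37 in controls. EFNB3 was also low relative to the other ligands. The ratio of EFNB3 to EFNB2 was 0.176, 0.164 and 0.161 with β-alanine, against 0.253, 0.272 and 0.271 in controls. Its ratio to each of the 7 other ligands did not overlap between groups, with log2 ratio differences of -0.43 (to EFNA1) to -1.02 (to EFNA4). Such separation was also seen in pairs without EFNB3. The ratios between EFNA4 and each of EFNA1, EFNA2, EFNA5, EFNB1 and EFNB2 did not overlap either. Nor did those between EFNA3 and each of EFNA1, EFNA5, EFNB1 and EFNB2, or that between EFNA1 and EFNB2. Pairs that did overlap included EFNA1 with EFNA5 and EFNB1 with EFNB2. EFNB3 was singled out as the ligand with the smallest p, so its ratios are a description. The exact permutation test gave p = 0.1 for each, two-sided, again the smallest possible, and 0.165 after adjustment over the 28 pairs.

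**Figure D4:**
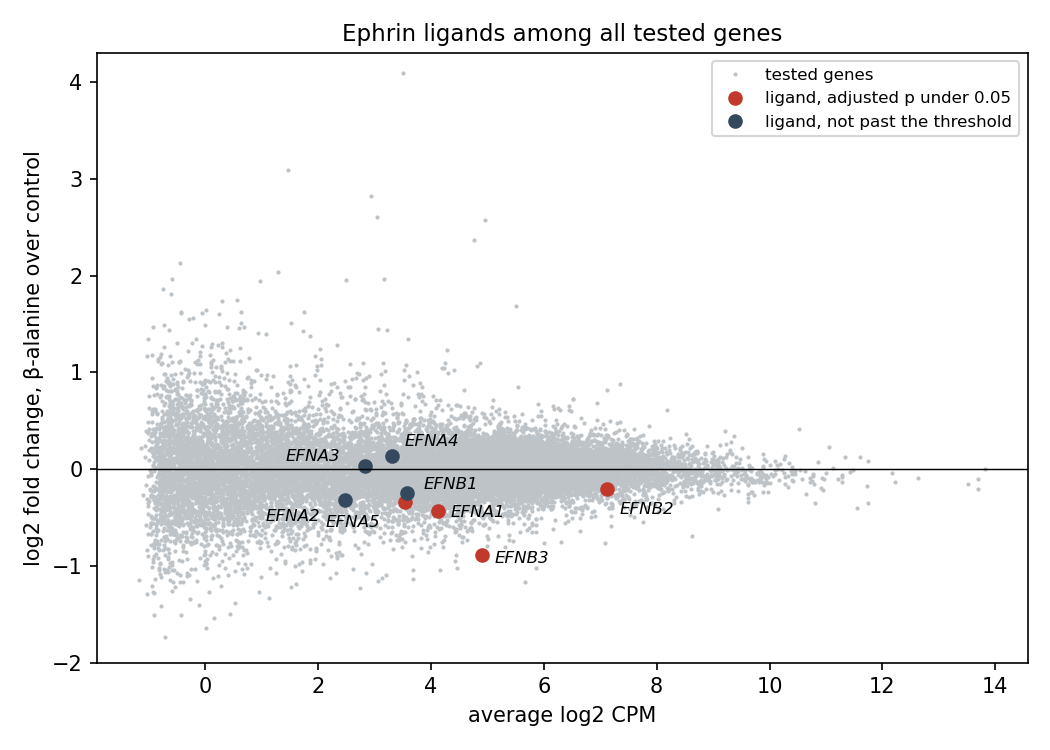
Log2 fold change, β-alanine over control, against average log2 CPM for all 17331 tested genes, with the 8 ephrin ligands marked. EFNB3 at -0.89 lies in the lower fringe of the cloud for its level and EFNA3 at 0.04 lies at its centre.

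Among the Eph receptors, which receive these ligands, 2 fell and none rose. All 14 receptor genes were in the table and 10 were tested, while EPHA1, EPHA4, EPHA5 and EPHA6 had between 0 and 17 counts per library. With 13.8% of all tested genes lower and 14.1% higher, 2 and 0 of 10 are near the background. With an unadjusted p under 0.05 the counts were also 2 lower and 0 higher in edgeR's quasi-likelihood test. That threshold has a larger background, as at least 6341 of the 17331 tested genes passed it in either direction. DESeq2 and limma-voom called 0 receptors higher. EPHB2, a receptor of the B class that also binds ephrin-A5, measured 7.73, 5.98 and 5.51 CPM with β-alanine, against 8.65, 9.23 and 9.48 CPM in controls. The groups did not overlap, with β-alanine library 1 nearest to controls. Its log2 fold change was -0.55 ± 0.12 (SE, Benjamini-Hochberg adjusted p = 0.00163 by edgeR quasi-likelihood). EPHB4, the receptor that pairs with ephrin-B2, measured 118, 98.2 and 101 CPM with β-alanine, against 114, 124 and 121 CPM in controls. Here β-alanine library 1 lay within the controls. The log2 fold change was -0.19 ± 0.06 (SE, Benjamini-Hochberg adjusted p = 0.0261 by edgeR quasi-likelihood). Without β-alanine library 1 it was -0.27. The call did not hold when library 2 was left out of the β-alanine group (0.143) or of the controls (0.134), nor when library 3 was (0.108 and 0.0867). Per length, EPHB4 was the leading receptor, at 21.0 CPM per kb with β-alanine and 23.7 in controls. EPHB6, which lacks kinase activity, had 3.60 with β-alanine and 3.72 in controls, and EPHA2 had 3.53 with β-alanine and 3.37 in controls. Every other receptor averaged under 2 CPM per kb in both groups. EPHA2, the main partner of ephrin-A1, had a log2 fold change of 0.07 ± 0.10 (SE), and the median of the 10 was -0.12.

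Transcripts of genes that act around ephrins changed in both directions. Of 43 such genes in 3 lists, 40 were tested, 9 rose and 6 fell, against 14.1% and 13.8% of all tested genes. With β-alanine library 1 left out, 10 rose and 8 fell, where 3204 of 17955 tested genes rose and 3294 fell. Without β-alanine library 2, 5 rose and 3 fell, where 8.6% of tested genes rose and 8.44% fell. Without control library 2, 5 rose and 4 fell, where 8.96% rose and 8.49% fell. On counts thinned to the smallest library, 5 rose and 4 fell, where 12.2% rose and 11.8% fell.

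In the list for reverse signalling, 4 of 15 tested genes rose and 2 fell, where 14.1% of all tested genes rose and 13.8% fell. SDCBP, whose product syntenin binds the PDZ motif of ephrin-B tails, averaged 196 ± 9.94 CPM with β-alanine and 155 ± 3.32 CPM in controls (SD, n = 3 each). Its log2 fold change was 0.35 ± 0.04 (SE, Benjamini-Hochberg adjusted p = 4.31e-06 by edgeR quasi-likelihood). The Src-family kinases FYN and YES1, members of the family that phosphorylates these tails, rose by 0.24 ± 0.07 and 0.16 ± 0.05. PTPN13, a phosphatase that binds ephrin-B, fell by 0.18 ± 0.05. The last 3 were sensitive to single libraries, with Benjamini-Hochberg adjusted p-values by edgeR quasi-likelihood of 0.0807 for FYN without β-alanine library 3, up to 0.0712 for YES1 and up to 0.0828 for PTPN13. YES1 was not called with library 2 or 3 of either group left out, nor PTPN13 with β-alanine library 2 or control library 1 left out. FYN was also not called on thinned counts (0.0903).

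In the list for forward signalling, 4 of 18 tested genes rose and 4 fell, where 14.1% of all tested genes rose and 13.8% fell. GRB2, an adaptor recruited to phosphorylated receptors, averaged 670.3 ± 16.0 CPM with β-alanine and 512 ± 10.9 CPM in controls (SD, n = 3 each), a log2 fold change of 0.39 ± 0.04 (SE). CBL, a ubiquitin ligase that acts on Eph receptors, rose by 0.28 ± 0.05. NGEF, or ephexin, a guanine nucleotide exchange factor of EphA receptors, measured 6.13, 4.67 and 5.21 CPM with β-alanine, against 8.60, 10.1 and 7.70 CPM in controls. The groups did not overlap and the log2 fold change was -0.75 ± 0.13 (SE). ITSN1, an exchange factor linked to EphB2, fell by 0.21 ± 0.05. The Benjamini-Hochberg adjusted p-values by edgeR quasi-likelihood were 1.57e-07 for GRB2, 0.00012 for CBL, 0.000171 for NGEF and 0.00226 for ITSN1.

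In the list for shedding and cleavage of ephrins, 1 of 7 tested genes rose and none fell in edgeR's quasi-likelihood test, with the same counts at an unadjusted p under 0.05. Past the adjusted threshold, 14.1% of all tested genes rose and 13.8% fell. At least 6341 of the 17331 tested genes had an unadjusted p under 0.05 in either direction. ADAM10, the protease that sheds ephrin-A5 in mouse, was named after its value was seen. It had a log2 fold change of -0.04 ± 0.04 (SE) and was not called.

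The 5 genes whose log2 CPM followed EFNB3 most closely over the 6 libraries were MBTPS2, WDR11, LRR1, WDR19 and RTF1, with Pearson r between 0.998 and 0.999. MBTPS2, the site-2 protease, had a log2 fold change of -0.63, WDR11 of -0.80, LRR1 of -0.53, WDR19, an intraflagellar transport gene, of -0.40 and RTF1, a transcription elongation factor, of -0.14. Of 13850 genes compared, 70 had an r above 0.99. With 2 groups of 3 libraries, the points fall into separate clusters, so r is given as a description only.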

How the data were processed

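For all 6 libraries the authors deposited a single table of raw counts by symbol. The submitters' processing notes name STAR 2.7.3a, featureCounts 2.0.1, Trimmomatic 0.39, bcl2fastq and DESeq2, and GRCh38 as the build. Tool settings, gene annotation and counting strand were not given in the sources used here. Groups of 3 libraries were read from the titles and treatment labels.

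Counts were filtered with filterByExpr (17331 symbols left of 36458, of which 3198 had no count), scaled by TMM and tested two-sided in R 4.3.3 by edgeR 4.0.16 (quasi-likelihood, robust). Benjamini-Hochberg adjustment ran over all tested genes with a threshold of 0.05. The common dispersion of 0.00189 is a biological coefficient of variation of 4.35%. The script was tested on simulated data. CPM used the scaled totals. No pair of libraries agreed within sampling noise: the chi-square per gene was between 1.93 and 4.79 within groups and between 4.44 and 15.95 across groups. The value of 4.44 was between β-alanine library 1 and control library 3, and that of 4.79 between β-alanine libraries 1 and 3. Gene positions came from RefSeq GRCh38.p14, and from GENCODE 29 where a symbol was not matched, covering 97.8% of tested genes.

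Members, lists and the naming rule were chosen with earlier results of these data known. Named were all ligands, called receptors, up to 4 called members of each partner list by smallest p, neighbours of called ligands and of the chromosome 1 cluster, and the 5 genes most like EFNB3. A few genes that the rule or the marker lists hold are not reported here. Alternatives used RLE scaling, library totals, no filter, a filter of 1 CPM in 3 libraries, DESeq2 1.42.0, limma-voom 3.58.1, no robust shrinkage, a replicate block, thinning, a threshold of 0.01 and each library left out.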

Additional observations from a re-analysis of the deposited data

How the results depend on the processing

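EFNA1, EFNB2 and EFNB3 were each called lower in 15 of 15 alternatives at the threshold of 0.05. Over all alternatives the number of ligands called ranged from 3 to 6, all lower. At a threshold of 0.01 the test called 2845 of the 4830 genes, 3 ligands, 1 Eph receptor and 7 pathway partners. EFNB1 also passed at -0.25 with RLE scaling, -0.25 with the filter of 1 CPM, -0.25 with limma-voom and -0.30 on counts thinned to the smallest library, where 9 partners passed. With 1 library left out at a time, calls ranged from 2974 (without β-alanine library 2) to 6498 (without β-alanine library 1) over all genes, with 3058 without control library 2, from 3 to 6 for ligands, from 1 to 2 for receptors and from 8 to 18 for partners. Log2 fold changes then ranged from -0.95 to -0.85 for EFNB3, -0.40 to -0.18 for EFNA2, -0.033 to 0.072 for EFNA3, 0.048 to 0.20 for EFNA4, -0.42 to -0.29 for EFNA5 and -0.30 to -0.20 for EFNB1. The sign of EFNA3 turned to -0.033 without control library 2, and that of LINC02163 to 0.013 and 0.073 without β-alanine library 2 and control library 2. Apart from the loss of libraries, counts and threshold that these alternatives consist of, the cause was not tested. With the union of exons as length, EFNA1 measured 5.79 CPM per kb with β-alanine and 7.88 in controls, EFNA3 measured 3.70 and EFNA5 1.80 with β-alanine.

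Same-numbered libraries of the groups did not deviate together, with correlations of 0.0496, 0.00365 and 0.0716, so the numbers were not taken as pairs. With the replicate block, 5172 genes were called, with 4 ligands, 2 receptors and 15 partners. Counts were lowest for EFNA2 among the ligands, at 76 to 157 per library, and 4 receptors had too few counts to test.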
